A study of Homo sapiens with 6 samples.

Results

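The 10 integrin subunits examined here are the 5 alpha chains ITGA2, ITGA3, ITGA5, ITGA6 and ITGAV and the 5 beta chains ITGB1, ITGB3, ITGB4, ITGB5 and ITGB8. They were taken by gene name from a table of 60461 genes, and all 10 were found and passed the filter on low counts. Integrins are cell surface receptors built from 1 alpha and 1 beta chain that tie the extracellular matrix to the actin or keratin cytoskeleton. The pairing sets the ligand: chains paired with beta1 bind collagen, laminin or fibronectin, those paired with alphaV bind vitronectin, fibronectin and latent TGF-beta through an arginine-glycine-aspartate motif, and alpha6beta4 anchors epithelial cells to laminin in hemidesmosomes. AlphaV integrins are also the receptors through which many adenoviruses enter cells, and adenovirus was the carrier in both groups.

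RNA was sequenced from MDA-MB-231, an established human triple-negative breast cancer cell line of mesenchymal character. The ADAR1 p110 group was transduced with adenovirus carrying the coding sequence of the p110 form of the adenosine deaminase ADAR1, an RNA editing enzyme, and the GFP group with a control adenovirus for enhanced green fluorescent protein. Each group held 3 libraries, at a multiplicity of infection of 200, with the medium changed at 16 h and RNA extracted at 48 h. Both groups therefore carried virus, and cells without virus were not analysed here. The replicates are called biological in the labels without a description of how the cultures were kept apart, and the spread that the p-values rest on may therefore be technical.

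Library totals were 74696405 to 98799000 counts in the ADAR1 p110 libraries and 72741235 to 99589278 in the GFP libraries. ADAR itself stood at 1006 ± 13.2 CPM (read counts relative to the scaled library total) in ADAR1 p110 cells and 267 ± 8.67 CPM in GFP cells (SD, n = 3 each). Of 18899 tested genes, 927 passed an edgeR quasi-likelihood test at a Benjamini-Hochberg adjusted p under 0.05, 368 higher and 559 lower in ADAR1 p110 cells, or 510 and 479 when libraries were scaled by their totals alone. Libraries of ADAR1 p110 replicate 1 and GFP replicate 2 stood apart from the other 4 on the second principal component. They lay at 27.4 and 27.4, against -21.0 to -7.94 for the rest, so results are also given without both. Both were picked from these same data for that distance, and leaving them out tends to narrow the spread within groups by selection. Values from that fit are a description and no added support. Markers of the cell line were present, with VIM at 2179 ± 181 CPM in ADAR1 p110 cells and 1952 ± 57.9 CPM in GFP cells, while the hormone receptor genes ESR1 and PGR had at most 6 counts in any library; CDH1, the epithelial cadherin gene, was low but rose (log2 fold change 0.57, edgeR adjusted p = 0.00966), a call that did not hold when replicate 3 of either group was dropped. Summed leukocyte markers ran from 60.3 to 66.9 CPM in ADAR1 p110 libraries and from 78.1 to 83.6 CPM in GFP libraries, most of it LAPTM5, and the T-cell gene CD3E was at 0 throughout. Endothelial markers summed to 7.54 to 8.06 CPM in ADAR1 p110 libraries and 10.1 to 11.0 CPM in GFP libraries, most of it KDR, with at most 3 counts of CDH5 in any library. The other marker lists, of platelets, fibroblasts and keratinocytes, had overlapping summed levels in the groups. In bulk RNA, fewer cells of a kind and less RNA per cell cannot be told apart.

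Transcripts of 4 of the 10 subunits passed the test between the groups. ITGA5, the fibronectin receptor chain, fell by 22.5%, ITGAV fell by 19.6% and its partner ITGB3 fell by 25.9% in ADAR1 p110 cells, while ITGB4, the hemidesmosomal beta chain, rose by 16.9%. Of the 6 fits without a single library, the call held in 6 for ITGA5, 4 for ITGB3, 3 for ITGAV and 1 for ITGB4. The 6 subunits that did not pass included ITGB1, the shared partner of most alpha chains, at a log2 fold change of -0.09. The share called, 4 of 10, stands beside 4.91% of all tested genes, with 1.95% called higher and 2.96% called lower. The median log2 fold change was -0.09 over the 10 subunits and 0.00 over all tested genes. Groups did not overlap in CPM for 6 of the 10 subunits, as for 24% of tested genes. The 10 subunits were chosen with results of these data known, so these shares are a description without a test. Level was not matched either. Per length, 8 of the 10 lay above the median tested gene, so the shares set genes of unlike level side by side.

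**Figure D1:**
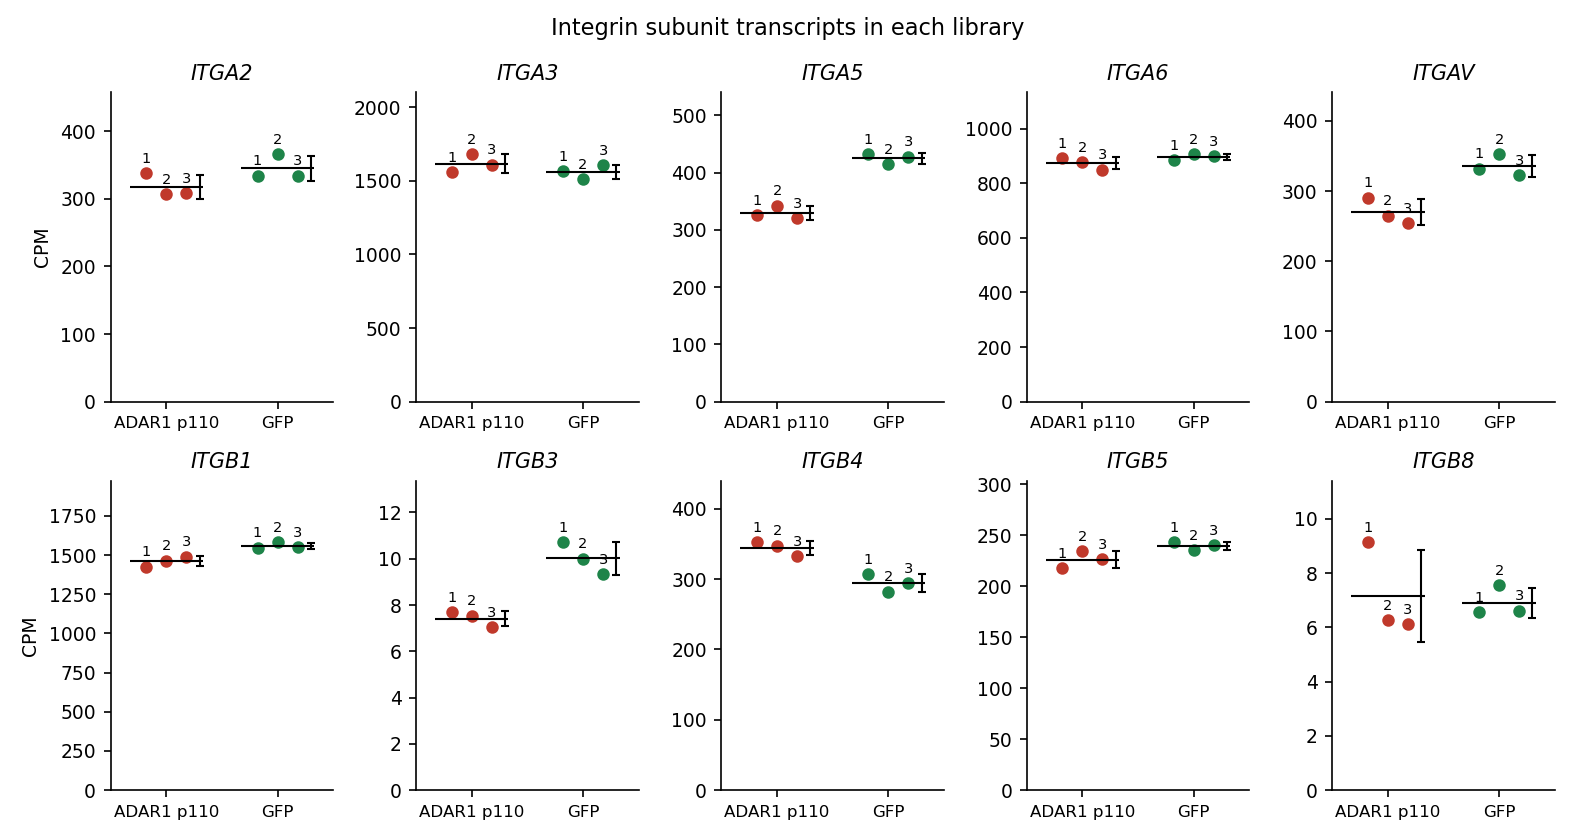
CPM of 10 integrin subunits in each library (vertical axes from 0, scaled per gene), red marking ADAR1 p110 libraries and green GFP libraries, the replicate number above each point, the group mean as a horizontal line and the SD as a vertical bar (n = 3 each). The groups lie apart for ITGA5, ITGAV, ITGB3 and ITGB4, more narrowly for ITGB1 and ITGB5, and overlap for the other 4 genes, with ITGB8 at 9.14 CPM in ADAR1 p110 replicate 1.

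Start regions are shown for ITGA5 and ITGAV, the 2 alpha chains that fell. RefSeq promoters of build GRCh38.p14, each 300 bases from 250 before to 50 after a listed transcript start, were available for 7 of the 10 subunits; ITGA3, ITGB3 and ITGB4 had no entry. Both strands were searched for the AP-1 motif TGANTCA, the GC box GGGCGG and the NF-kappaB motif GGGRNNYYCC, and matches are in capitals. In these motifs N is any base, R is A or G, and Y is C or T. The ITGA5 window lies at chr12:54419217-54419516 on the minus strand and the ITGAV window, the first of 2 listed starts, at chr2:186589806-186590105 on the plus strand.
ITGA5: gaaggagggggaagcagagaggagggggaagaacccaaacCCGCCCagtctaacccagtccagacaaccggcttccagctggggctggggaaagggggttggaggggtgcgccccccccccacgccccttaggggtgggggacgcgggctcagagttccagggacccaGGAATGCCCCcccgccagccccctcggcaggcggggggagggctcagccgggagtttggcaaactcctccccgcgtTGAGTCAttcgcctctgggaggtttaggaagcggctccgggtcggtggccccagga
ITGAV: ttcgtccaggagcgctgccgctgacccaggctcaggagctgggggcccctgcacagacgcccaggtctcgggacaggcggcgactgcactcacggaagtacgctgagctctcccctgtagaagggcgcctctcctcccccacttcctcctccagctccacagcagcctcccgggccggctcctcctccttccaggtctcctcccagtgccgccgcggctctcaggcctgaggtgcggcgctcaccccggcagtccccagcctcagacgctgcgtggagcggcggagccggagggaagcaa
The ITGA5 window held 1 match to each motif. The AP-1 match was TGAGTCA, which reached the listed transcript start. Both the NF-kappaB match, printed as GGAATGCCCC, and the GC box were matches on the other strand. The ITGAV window held none of the 3. Among 35116 RefSeq promoter windows, 7.71% held the AP-1 motif, 45.0% the GC box and 11.3% the NF-kappaB motif. Of the other subunits with an entry, ITGB1 at 1 of its 2 listed starts and ITGB8 held the NF-kappaB motif and none held the AP-1 motif. None of these motifs overlapped another in the ITGA5 window, and a match in sequence is not a measured binding site.

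ITGA5 encodes the alpha5 chain, which pairs with beta1 alone to form the main fibronectin receptor. ITGA5 (ENSG00000161638.10_3, hg19 chromosome 12, 54789045 to 54813244, minus strand) gave 24743, 33731 and 24736 reads in ADAR1 p110 replicates 1 to 3, against 37546, 30080 and 42111 reads in GFP replicates 1 to 3. These amounted to 326, 342 and 320 CPM in the ADAR1 p110 libraries, against 433, 415 and 428 CPM in the GFP libraries. Every ADAR1 p110 library lay below every GFP library, with a gap several times the SD of either group. The log2 fold change was -0.37 (SE 0.049, 95% interval -0.48 to -0.26, edgeR adjusted p = 0.00151). Its call held in all 14 alternatives, with log2 fold changes of -0.39 to -0.34 and adjusted p of 1.94e-08 to 0.0232.

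The alphaV chain pairs with beta1, beta3, beta5, beta6 and beta8. ITGAV (ENSG00000138448.11_3, hg19 chromosome 2, 187454792 to 187545628, plus strand) had 291, 265 and 254 CPM in the ADAR1 p110 libraries, against 332, 353 and 322 CPM in the GFP libraries. The groups did not overlap. The highest value of each group, in ADAR1 p110 replicate 1 and GFP replicate 2, was from one of the 2 libraries that stood apart. The log2 fold change was -0.31 (SE 0.061, edgeR adjusted p = 0.0140). Without both libraries that stood apart it was -0.33 (SE 0.039, edgeR adjusted p = 2.61e-05), in a fit where 13.4% of all tested genes were called. Since those libraries were picked from these data, the smaller p is no added support. The call was lost without ADAR1 p110 replicate 2, ADAR1 p110 replicate 3 or GFP replicate 1 (edgeR adjusted p = 0.0735, 0.0809 and 0.0785), with log2 fold changes of -0.30, -0.27 and -0.32. It held narrowly without GFP replicate 2, at a log2 fold change of -0.27 (edgeR adjusted p = 0.0496).

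Of the measured partners of alphaV, ITGB3 passed the test and ITGB5, ITGB8 and ITGB1 did not. ITGB6, which is outside the 10, did not pass either (log2 fold change -0.37, edgeR adjusted p = 0.371). It had 62 to 79 reads in the ADAR1 p110 libraries and 91 to 102 in the GFP libraries. In CPM its groups overlapped, at 1.040, 0.781 and 0.802 in the ADAR1 p110 libraries, against 1.049, 1.296 and 1.037 in the GFP libraries. ITGB3 encodes beta3, whose pair with alphaV binds vitronectin, osteopontin and other matrix proteins. ITGB3 (ENSG00000259207.7_3, hg19 chromosome 17, 45331212 to 45389182, plus strand) was low, with 584, 742 and 544 reads in the ADAR1 p110 libraries, against 929, 726 and 917 reads in the GFP libraries. In CPM it stood at 7.69, 7.53 and 7.04 in the ADAR1 p110 libraries, against 10.7, 10.0 and 9.32 in the GFP libraries. All 3 ADAR1 p110 values were below the lowest GFP value, and the log2 fold change was -0.43 (SE 0.082, 95% interval -0.61 to -0.25, edgeR adjusted p = 0.0125). The call was lost when ADAR1 p110 replicate 3 or GFP replicate 1 was left out (edgeR adjusted p = 0.0692 and 0.0807).

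ITGB5 encodes beta5, the other vitronectin receptor chain and a co-receptor in adenovirus uptake. ITGB5 (hg19 chromosome 3, 124480795 to 124620265, minus strand) had 217, 234 and 226 CPM in the ADAR1 p110 libraries, against 243, 235 and 240 CPM in the GFP libraries. The groups came within 1 CPM of each other without overlapping, and the log2 fold change was -0.08 (95% interval -0.19 to 0.03, edgeR adjusted p = 0.417). ITGB8 encodes beta8, whose pair with alphaV binds and activates latent TGF-beta. ITGB8 (hg19 chromosome 7, 20370325 to 20455377, plus strand) had 9.14, 6.26 and 6.12 CPM in the ADAR1 p110 libraries, against 6.57, 7.55 and 6.62 CPM in the GFP libraries. The groups overlapped, with ADAR1 p110 replicate 1 above all other libraries, and the interval of the log2 fold change ran from -0.27 to 0.37 (estimate 0.05, edgeR adjusted p = 0.901). The estimate turned to -0.16 without that library and to -0.09 without both libraries that stood apart, and neither value passed the test (edgeR adjusted p = 0.383 and 0.646).

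ITGB1, the beta chain common to the collagen, laminin and fibronectin receptors, had the highest level per length of the 10. ITGB1 (hg19 chromosome 10, 33189247 to 33294720, minus strand) had 1427, 1465 and 1490 CPM in the ADAR1 p110 libraries, against 1546, 1581 and 1550 CPM in the GFP libraries. Although the groups did not overlap, the log2 fold change of -0.09 (SE 0.046, 95% interval -0.20 to 0.01) did not pass (edgeR adjusted p = 0.314), nor did it in any of the 14 alternatives.

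The collagen and laminin receptor alpha chains did not pass the test. ITGA2, whose alpha2beta1 pair binds fibrillar collagen (hg19 chromosome 5, 52285156 to 52390609, plus strand), had 338, 307 and 308 CPM in the ADAR1 p110 libraries, against 334, 366 and 334 CPM in the GFP libraries. The 2 libraries that stood apart were the highest of their groups here. Their removal gave a log2 fold change of -0.12 that passed (edgeR adjusted p = 0.0423, where 13.4% of all tested genes were called). With all 6 libraries it was -0.12 with an edgeR adjusted p of 0.318. As those 2 libraries were picked from these data, that pass is no added support. Dropping only one of them moved the estimate to -0.17 (ADAR1 p110 replicate 1) or -0.07 (GFP replicate 2). ITGA3 and ITGA6 encode the laminin-binding chains alpha3 and alpha6. ITGA3 (hg19 chromosome 17, 48133332 to 48167845, plus strand) had 1558, 1682 and 1608 CPM in the ADAR1 p110 libraries, against 1566, 1511 and 1607 CPM in the GFP libraries. ITGA6 (hg19 chromosome 2, 173292082 to 173371010, plus strand) had 893, 877 and 850 CPM in the ADAR1 p110 libraries, against 884, 908 and 899 CPM in the GFP libraries. The groups overlapped for both genes, and the 95% intervals of their log2 fold changes were -0.06 to 0.16 for ITGA3 and -0.14 to 0.06 for ITGA6 (edgeR adjusted p = 0.675 and 0.729).

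ITGB4, the only one of the 10 called higher, encodes the beta4 chain, which pairs with alpha6 and has a long cytoplasmic tail that binds plectin. ITGB4 (ENSG00000132470.13_2, hg19 chromosome 17, 73717408 to 73753899, plus strand) gave 26741, 34239 and 25699 reads in the ADAR1 p110 libraries, against 26615, 20461 and 28953 reads in the GFP libraries. Its CPM values were 352, 347 and 332 in the ADAR1 p110 libraries, against 307, 282 and 294 in the GFP libraries. The groups did not overlap, with the lowest value in GFP replicate 2. The log2 fold change was 0.22 (SE 0.051, edgeR adjusted p = 0.0310). Without both libraries that stood apart it was 0.18 (edgeR adjusted p = 0.00553), in a fit where 13.4% of all tested genes were called. That smaller p is likewise no added support, since the libraries were picked from these data. The call was lost on leaving out any single library other than ADAR1 p110 replicate 1, with edgeR adjusted p of 0.0682 to 0.118. ITGB4 overlaps GALK1 on the opposite strand, which held 9.62% as many counts and had a log2 fold change of 0.05 (edgeR adjusted p = 0.742), and the strand setting of the counting is not given in the sources used here. No annotated gene overlapping the other 9 subunits held more than 1.80% as many counts.

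**Figure D2:**
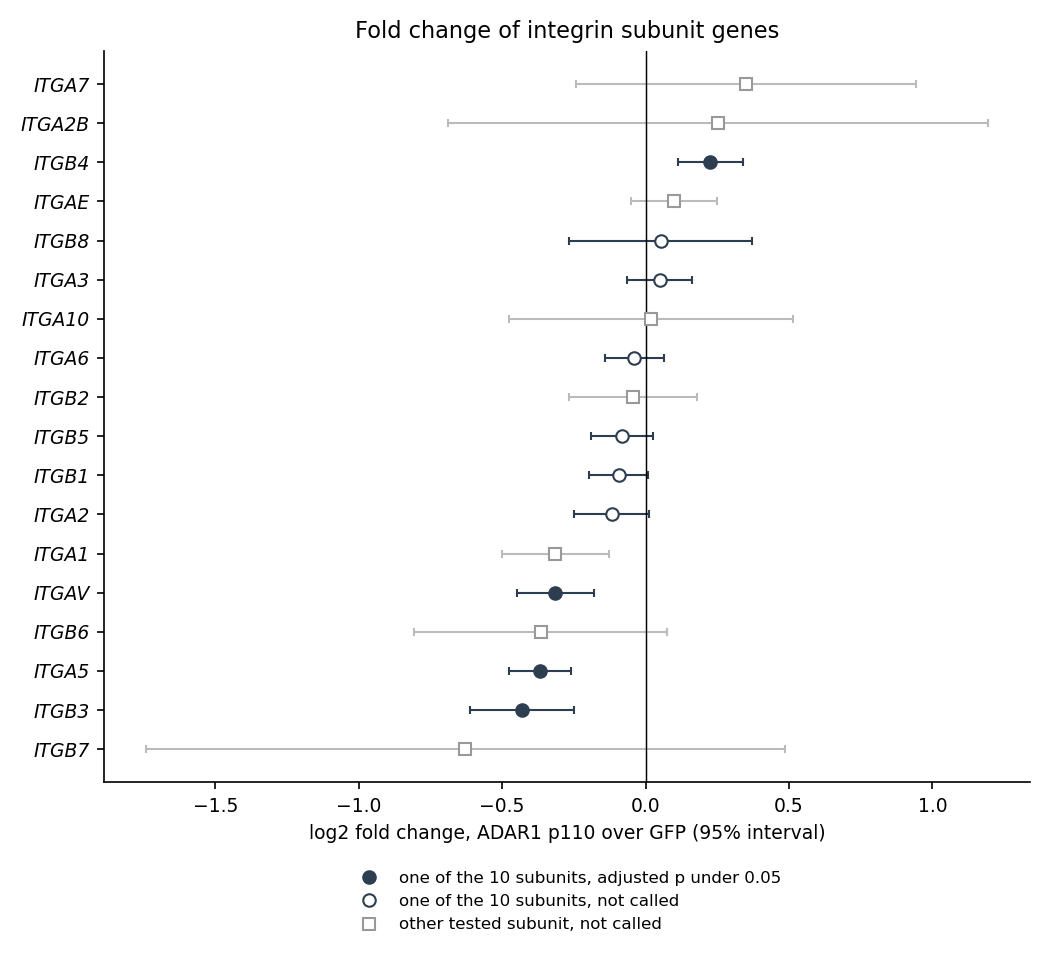
Change of ADAR1 p110 relative to GFP in log2 units (horizontal axis) with its 95% interval from edgeR for the 18 tested integrin subunit genes, circles marking the 10 subunits and grey squares the 8 others, filled where the adjusted p was under 0.05. ITGB3, ITGA5 and ITGAV lie to the left of 0 at -0.43, -0.37 and -0.31, and ITGB4 lies to the right at 0.22.

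Levels of different subunits can be compared only per length, and RPKM (CPM divided by the annotated gene length in kilobases) was used for this. ITGB1 came first, at 243 ± 5.27 RPKM in ADAR1 p110 cells and 259 ± 3.16 RPKM in GFP cells (SD, n = 3 each). ITGA3 followed at 165 ± 6.39 and ITGA6 at 134 ± 3.35 RPKM in ADAR1 p110 cells, against 159 ± 4.94 and 137 ± 1.80 RPKM in GFP cells. These 3 were apart from each other and from the rest in every library of either group. ITGB4, ITGA5, ITGA2, ITGB5 and ITGAV formed a middle tier, from 32.9 to 50.9 RPKM in ADAR1 p110 cells and from 37.1 to 56.1 RPKM in GFP cells. The lowest were ITGB3, at 1.69 ± 0.0774 RPKM in ADAR1 p110 cells and 2.28 ± 0.158 RPKM in GFP cells, and ITGB8, at 0.473 ± 0.112 and 0.456 ± 0.0367 RPKM. The median tested gene stood at 2.46 RPKM in GFP cells, above both.

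The order within the middle tier differed between the groups. In ADAR1 p110 cells it ran ITGB4, ITGA5, ITGA2, ITGB5 and ITGAV, where ITGA5 overlapped ITGA2 and ITGB5 overlapped ITGAV over their libraries. In GFP cells it ran ITGA5, ITGA2, ITGB4, ITGAV and ITGB5, where ITGA2 overlapped ITGB4 and ITGB4 overlapped ITGAV. Over all 10, ITGB4 thus held rank 4 in ADAR1 p110 cells and rank 6 in GFP cells, and ITGA5 held rank 5 in ADAR1 p110 cells and rank 4 in GFP cells. These ranks were not tested. Of the summed RPKM of the 10 subunits, ITGA5 took 5.70% to 5.98% in the ADAR1 p110 libraries and 7.01% to 7.34% in the GFP libraries, and ITGB4 took 6.64% to 7.01% in the ADAR1 p110 libraries and 5.34% to 5.83% in the GFP libraries. The 5 alpha chains together had 1.64 to 1.76 times the RPKM of ITGB1 in the ADAR1 p110 libraries and 1.66 to 1.70 times in the GFP libraries, ranges that overlapped.

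**Figure D3:**
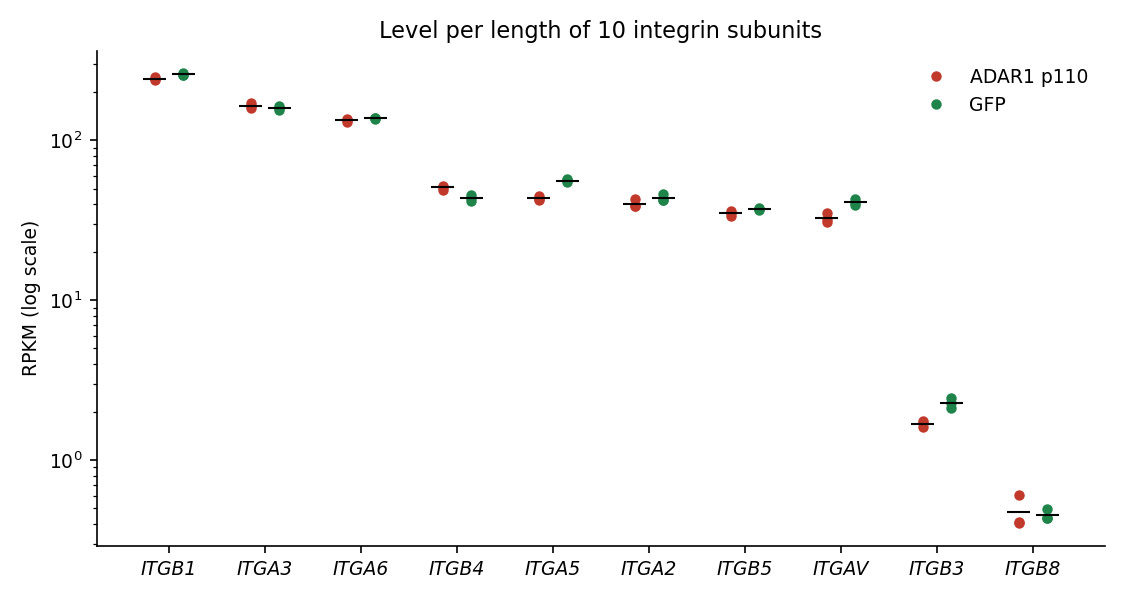
RPKM of the 10 subunits in each library on a log axis, red for ADAR1 p110 and green for GFP, with the group mean as a horizontal bar (n = 3 each). ITGB1 is highest at 243 and 259 RPKM, ITGB4, ITGA5, ITGA2, ITGB5 and ITGAV form a middle tier, and ITGB3 and ITGB8 lie far below it.

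Since integrins work as pairs, the ratio of alpha to beta transcripts was compared in each library for 9 known pairs. Groups did not overlap for 6 of the 9, which are not separate observations because most share ITGB1 or ITGAV. For the CPM of single genes, 24% of all tested genes had groups that did not overlap, and no such share was computed for ratios. The log2 ratio of ITGA5 to ITGB1 was -2.13, -2.10 and -2.22 in the ADAR1 p110 libraries, against -1.84, -1.93 and -1.86 in the GFP libraries, a difference of -0.27. That of ITGA6 to ITGB4 was 1.34, 1.34 and 1.35 in the ADAR1 p110 libraries, against 1.53, 1.69 and 1.61 in the GFP libraries, a difference of -0.26. ITGAV was lower relative to ITGB1, ITGB5 and ITGB8, with differences of -0.22, -0.23 and -0.35 (the last -0.21 when ADAR1 p110 replicate 1, with its high ITGB8 value, was dropped), and ITGA3 was higher relative to ITGB1, with a difference of 0.14. Each of these 6 ratios had an exact two-sided permutation p of 0.1, the smallest that 3 libraries against 3 can give, and 0.15 after adjustment over the 9 ratios, so none could pass. The ratio of ITGAV to ITGB3, both of which fell, overlapped between the groups (difference 0.12, exact permutation p = 0.2), as did those of ITGA2 and ITGA6 to ITGB1 (differences -0.02 and 0.05).

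**Figure D4:**
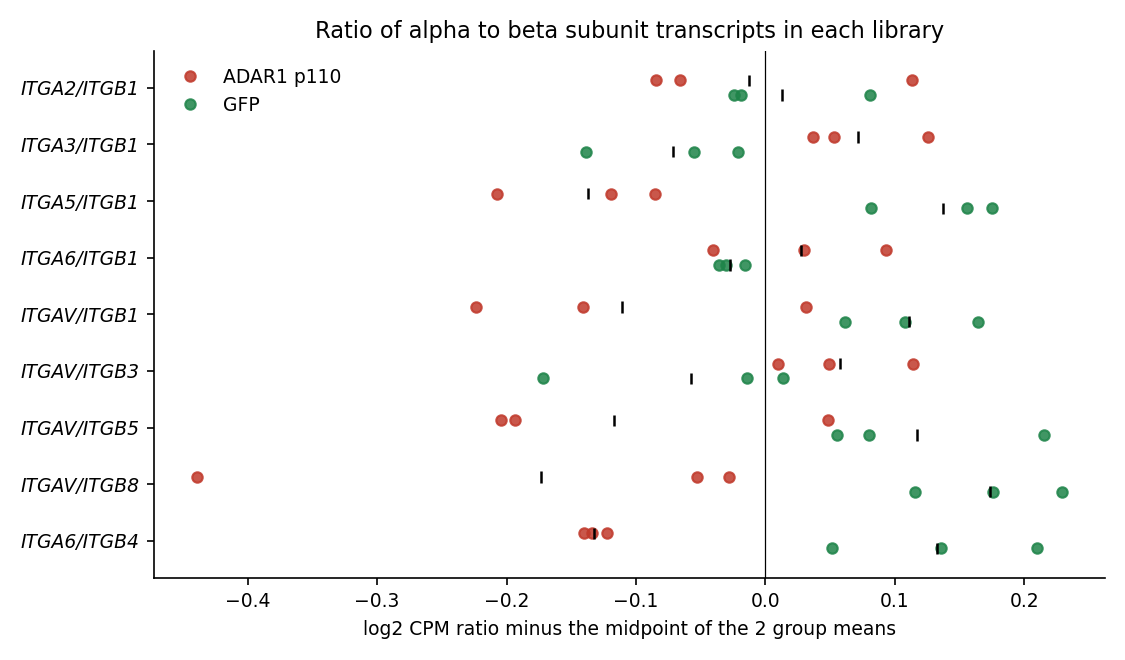
Log2 ratio of alpha to beta subunit CPM in each library, shown as the distance from the midpoint of the group means (horizontal axis), for 9 known pairs, with ADAR1 p110 above in red and GFP below in green and short bars at the group means. ADAR1 p110 libraries lie to the left of GFP libraries for ITGA5/ITGB1 and ITGA6/ITGB4, by -0.27 and -0.26 between the means, and to the right for ITGA3/ITGB1, by 0.14.

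The remaining 16 human integrin subunit genes gave no call. Only 8 of them passed the low-count filter. Over all tested genes 4.91% were called, a share at which 8 genes may give no call. Some of the 8 had few reads, such as ITGA2B with 11 to 33 counts in a library. The median log2 fold change of the 8 was -0.01, and 1 had an unadjusted edgeR p under 0.05. That gene was ITGA1, the collagen-binding alpha1 chain, with 22.6, 19.5 and 22.7 CPM in the ADAR1 p110 libraries, against 24.7, 29.7 and 26.1 CPM in the GFP libraries. The groups did not overlap, but the log2 fold change of -0.31 (SE 0.085) missed the threshold (edgeR adjusted p = 0.0622). ITGA1 spans PELO on the same strand, which held 371% as many counts, so reads at that locus may have been divided unevenly.

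Genes that work with integrins were described by lists chosen with earlier results of these data known. Among matrix ligands, 6 of 32 tested genes fell (18.8%) and none rose, beside 2.96% lower and 1.95% higher over all tested genes, and the list median of the log2 fold change was -0.11. The genes that fell included LAMB3, which encodes a chain of laminin-332, a ligand of alpha3beta1 and alpha6beta4, and the collagen VI gene COL6A1. LAMB3 had 531, 576 and 567 CPM in the ADAR1 p110 libraries, against 754, 687 and 754 CPM in the GFP libraries, which is a log2 fold change of -0.39 with an SE of 0.056 (edgeR adjusted p = 0.00254). The groups did not overlap. COL6A1 had a log2 fold change of -0.40. Chosen after their values were seen, COL6A2 (-0.36), COL4A1 (-0.27) and LAMC1 (-0.22) also fell. The calls of LAMB3, COL6A1 and COL6A2 held in all 14 alternatives, whereas that of COL4A1 was lost without ADAR1 p110 replicate 3, GFP replicate 1 or GFP replicate 3, and that of LAMC1 on leaving out any single library other than ADAR1 p110 replicate 1.

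The hemidesmosome list held calls in both directions, with 1 of 7 tested genes higher and 3 lower (57.1% called, beside 4.91% of all tested genes) and a median log2 fold change of -0.15. PLEC, which encodes plectin, the keratin linker that binds beta4, was outside the naming rule and was named with its values in view. It rose, with 2324, 2420 and 2171 CPM in the ADAR1 p110 libraries, against 1535, 1831 and 1846 CPM in the GFP libraries (log2 fold change 0.41, SE 0.074, edgeR adjusted p = 0.0100). COL17A1, the transmembrane collagen of hemidesmosomes, fell, with 21.7, 22.5 and 25.8 CPM in the ADAR1 p110 libraries, against 37.2, 33.3 and 33.5 CPM in the GFP libraries (log2 fold change -0.57). LAMB3, described above among the ligands, is also in this list. Both PLEC and COL17A1 were called in all 14 alternatives.

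Membrane partners of integrins gave 1 higher and 4 lower calls among 14 tested genes (35.7%, beside 4.91% of all tested genes), with a median of -0.03. SDC4, the heparan sulfate proteoglycan syndecan-4 that joins alpha5beta1 in binding fibronectin, had 184, 203 and 198 CPM in the ADAR1 p110 libraries, against 382, 379 and 378 CPM in the GFP libraries. This was the largest fall among the called genes of these lists, at a log2 fold change of -0.96 with an SE of 0.052 (edgeR adjusted p = 1.03e-06). The tetraspanin gene CD82 (-0.57) and PLAUR (-0.41), the urokinase receptor, also fell, and these 3 calls held in all 14 alternatives. Picked after their values were seen, the membrane protease gene MMP14 (-0.24) fell and the caveolin gene CAV1 (0.20) rose. The call of MMP14 was lost without ADAR1 p110 replicate 3, GFP replicate 1 or GFP replicate 3, and that of CAV1 on leaving out any single library other than ADAR1 p110 replicate 1.

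Of the cytoplasmic partners, 1 of 24 tested activators and inhibitors was called higher and 1 lower (8.33% together, median -0.04), and 3 of 34 focal adhesion adaptors and kinases were called lower (8.82%, median -0.03). Over all tested genes 4.91% were called, and the difference was not tested. FERMT2, encoding kindlin-2, which binds beta tails and activates integrins together with talin, had 266, 274 and 275 CPM in the ADAR1 p110 libraries, against 316, 320 and 322 CPM in the GFP libraries. It fell, at a log2 fold change of -0.23 with an SE of 0.045 (edgeR adjusted p = 0.0139). TNS4, an adaptor of the tensin family, rose by 0.45 on the log2 scale, and the focal adhesion genes PPFIBP1 (-0.31), the kinase gene PTK2B (-0.27) and ILK (-0.24), which encodes integrin-linked kinase, fell. Each of these 5 calls was lost in 4 or 5 of the 6 fits that left out a single library, GFP replicates 1 and 3 and ADAR1 p110 replicate 3 being among them for every gene. The call of TNS4 was also lost under limma-voom, and those of PTK2B and PPFIBP1 were lost with library size as the only scaling. ILK overlaps TAF10 on the opposite strand, which held 12.3% as many counts.

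Neither the 9 tested genes of latent TGF-beta nor the 23 of integrin uptake and recycling gave a call. Over all tested genes 4.91% were called, a share at which lists this small may hold none. The list medians were -0.03 and -0.02, and 2 and 5 genes had an unadjusted edgeR p under 0.05. The most abundant members were TGFB2, a TGF-beta ligand, at 135 ± 1.15 CPM in ADAR1 p110 cells and 134 ± 8.67 CPM in GFP cells, and CLTC, the clathrin heavy chain gene, at 1107 ± 124 CPM in ADAR1 p110 cells and 1196 ± 97.6 CPM in GFP cells (SD, n = 3 each). The leukocyte marker gene LAPTM5 and the endothelial marker gene KDR fell by 0.41 and 0.45 on the log2 scale in the same comparison (edgeR adjusted p = 0.00323 and 0.00603), beside CDH5 and CD3E at or near 0.

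**Figure D5:**
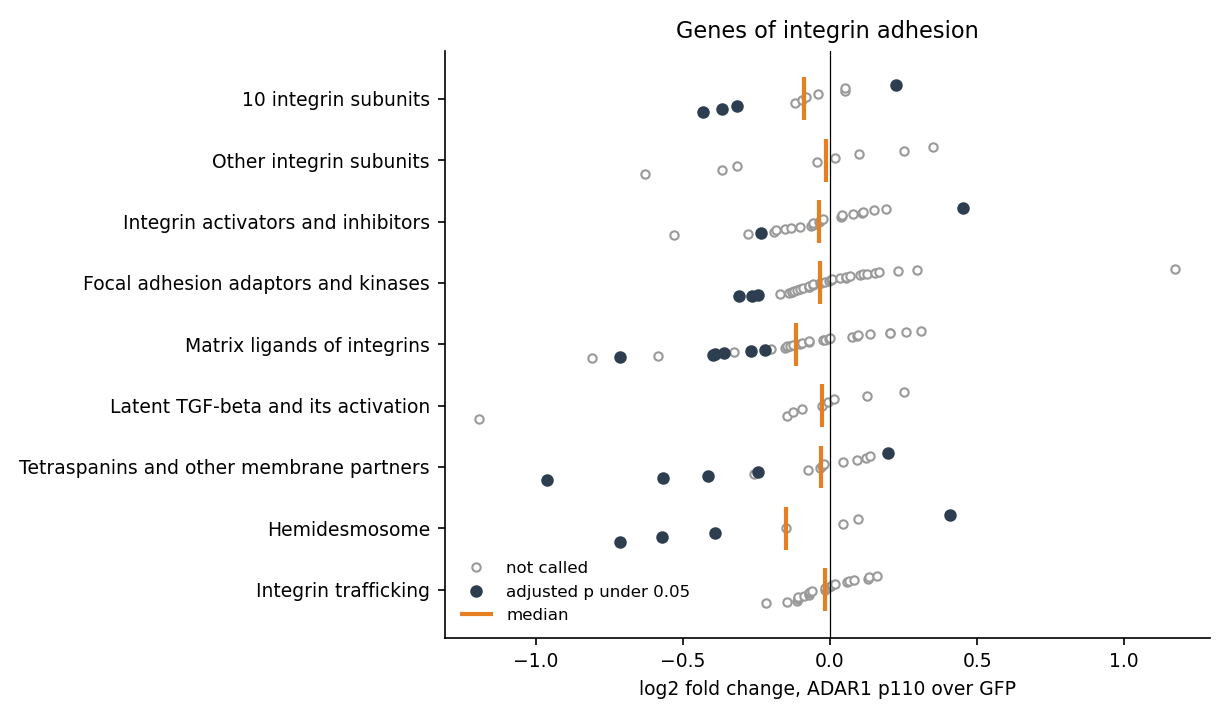
Change of ADAR1 p110 relative to GFP, in log2 units, for every tested gene of 9 lists (horizontal axis), dark points having an edgeR adjusted p under 0.05, open points not, and orange bars the list medians. Among matrix ligands all 6 called genes lie to the left of 0, SDC4 lies farthest left of the called points at -0.96, and the hemidesmosome list has PLEC at 0.41 and COL17A1 at -0.57 on opposite sides.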

How the data were processed

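Per the labels' protocols, total RNA was extracted on columns and made into stranded total RNA libraries. The submitters' processing notes name STAR 2.5.2a, featureCounts 1.5.1, build hg19 and, for differential expression, DESeq2 1.4.5 in R 3.1. The deposited values are whole-number raw counts per gene, listed with names, positions and lengths per the file headers. The strand setting of counting, the treatment of multiply aligned reads and how the length was derived are not given in the sources.

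Genes were kept by filterByExpr of edgeR 4.0.16 (minimum count 10), scaled by TMM and tested with glmQLFit and glmQLFTest in R 4.3.3, group being the only term, with Benjamini-Hochberg adjustment over all 18899 tested genes and a threshold of 0.05. CPM were scaled by TMM, and RPKM divided them by the deposited length. SE was the absolute log2 fold change divided by the square root of F. For 95% intervals the total degrees of freedom of that fit were used, the residual ones plus prior ones estimated across genes. Partner ratios were compared by an exact two-sided permutation test over the libraries. Precision is set by 3 libraries a group and by totals of 72741235 to 99589278 counts, at which a count of 0 allows up to 3 counts, or 0.0301 to 0.0412 CPM, for counting error only.

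Groups and replicate numbers came from sample titles and columns from the names quoted in the labels. The members, lists, tests and naming rule were chosen with earlier results of these data known. The rule named the 10 subunits and, per list, up to 3 called genes of smallest p, or else the most abundant. PECAM1 was not matched in the table, and 1 called gene is counted in its lists but not reported here by name.

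Alternatives were DESeq2 size factors, library size alone, no low-count filter, DESeq2 1.42.0, voom in limma 3.58.1, a block for the replicate number, ADAR counts taken out, each library left out in turn, and both ADAR1 p110 replicate 1 and GFP replicate 2 left out. Replicate pairs differed by chi-square values of 8.64 to 39.7 per degree of freedom, so no pair agreed within counting noise. The fits were also run on simulated counts with known changes, and the outcome is not reported here and not used as support. Figures were drawn with matplotlib 3.10.9.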

Additional observations from a re-analysis of the deposited data

How the results depend on the processing

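Of the 14 alternatives, 10 left the number of called subunits within 1.5 times the reported 4. It was 2 with the replicate number as a block, 1 to 4 without a single library and 5 with both ADAR1 p110 replicate 1 and GFP replicate 2 left out. The number of genes called over all tested genes, 927, was 1553 without a low-count filter, 508 with the replicate block, 396 to 1812 without a single library and 2605 without those 2 libraries. The block ended the calls of ITGAV (edgeR adjusted p = 0.0516) and ITGB4 (edgeR adjusted p = 0.128). Deviations from the group means correlated at -0.10, -0.02 and 0.04 between libraries of the same number. Between libraries of unlike number the correlations ran from -0.13 to 0.14. With so few libraries these values cannot decide whether libraries of the same number were handled together. Among the named genes of the lists, the block also ended the calls of FERMT2, TNS4, PTK2B, ILK, PPFIBP1, LAMC1, COL4A1, MMP14 and CAV1. Only ITGB8 changed sign, to -0.16 without ADAR1 p110 replicate 1 and to -0.0876 without both libraries, over a range of -0.16 to 0.15 without a single library, the call being absent in each case. The 4 called subunits kept their call under the other scalings, DESeq2, limma-voom, no filter and removal of ADAR counts. The number of partner ratios with groups apart stayed at 6 or 7 of 9, and 8 of the 10 subunits stayed above 10 RPKM in both groups. The cause of these shifts was not tested. ITGB3 and ITGB8, with at most 929 reads in a library, had log2 fold change SEs of 0.082 and 0.144, against 0.046 to 0.061 for the other 8 subunits. The SE of ITGB8 was 0.098 without ADAR1 p110 replicate 1, the library where it was highest.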

Other observations

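Some integrin subunits stood at higher levels per length than the partners they are known to pair with. ITGB2, the leukocyte beta2 chain, stood at 6.81 ± 0.554 CPM in ADAR1 p110 cells and 7.01 ± 0.748 CPM in GFP cells (SD, n = 3 each; log2 fold change -0.04, edgeR adjusted p = 0.879). Its alpha partners ITGAL, ITGAM, ITGAX and ITGAD did not pass the low-count filter, the highest single value among them being 17 counts of ITGAX in GFP replicate 1. Per length that value was 0.0277 RPKM, while ITGB2 had means of 1.00 RPKM in ADAR1 p110 cells and 1.03 RPKM in GFP cells. ITGB2 overlaps ITGB2-AS1 on the opposite strand, with 12.2% as many counts.

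ITGAE, the alphaE chain, stood at 21.6 ± 0.953 CPM in ADAR1 p110 cells and 20.1 ± 1.19 CPM in GFP cells, whereas ITGB7, its known beta partner, stood at 0.221 ± 0.136 CPM in ADAR1 p110 cells and 0.356 ± 0.169 CPM in GFP cells. Per length, ITGAE had means of 3.24 RPKM in ADAR1 p110 cells and 3.02 RPKM in GFP cells. Those of ITGB7 were 0.0493 and 0.0795 RPKM. Neither passed the test (edgeR adjusted p = 0.489 and 0.570). Both lie in loci shared with genes on the opposite strand, HASPIN with 157% of the counts of ITGAE and ZNF740 with 8304% of those of ITGB7, so part of either value may belong to the neighbour, which was not tested. ITGA4, the other partner of beta7, had at most 4 counts in any library, and ITGA8 at most 2.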
